A study of Mus musculus with 4 samples.

Results

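The genes described here are nuclear-encoded subunits of the oxidative phosphorylation machinery, in laser-captured mesenchyme of mouse molar tooth germs at embryonic day 13.5. Members were chosen by gene symbol. Symbols begin with Ndufa, Ndufb, Ndufc, Ndufs or Ndufv and a digit, are Sdha to Sdhd, or begin with Uqcr, Cox4 to Cox8 or Atp5. The rule itself uses no expression value, but it was chosen with earlier results of these data known. The rule found 85 of the 22072 gene symbols in the tables, of which 37 belong to complex I, 4 to complex II, 8 to complex III, 19 to complex IV and 17 to complex V. A mean of at least 1 FPKM (fragments mapped per kilobase of transcript, relative to library depth) over the libraries was reached by 78 members, and these were tested. Some names need a caution. Cox4nb, a neighbour of Cox4i1 on chromosome 8, is listed in RefSeq as Emc8, an endoplasmic reticulum protein, and is counted among the 19 only because its symbol fits. Atp5sl is listed in RefSeq as Dmac2, a factor in complex I assembly. Ndufa4 is kept under complex I, where its symbol puts it, although its protein is now placed in complex IV.

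The study compared 2 genotypes in 2 molars. The control carried 1 floxed and 1 unmodified allele of the signalling ligand Bmp4 (Bmp4f/+), and its label names no Cre. The mutant carried 2 floxed alleles and Wnt1Cre (Bmp4f/f;Wnt1Cre), a driver that is active in neural crest cells, from which molar mesenchyme derives, so that an effect of the transgene itself cannot be told apart from loss of Bmp4. All embryos were of mixed background, and the upper (maxillary) and lower (mandibular) molars were kept apart. This gave 4 groups with 1 library each, and each library was a pool, which the series description traces to 3 pairs of control and mutant samples. Values are therefore given for all 4 libraries, and no SD can be given for any group. Whether the upper and lower pools of a genotype share embryos is not given in the labels.

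Oxidative phosphorylation takes place in the inner mitochondrial membrane. Complexes I and II pass electrons from NADH and succinate to ubiquinone, complex III passes them on to cytochrome c, and complex IV passes them to oxygen. Complexes I, III and IV pump protons, and complex V, the ATP synthase, lets them flow back and makes ATP. Complex II is encoded by nuclear genes alone, whereas the others also hold subunits made from mitochondrial DNA, which are not analysed here.

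Depth was about 4820000 to 5550000 reads on annotated transcripts per library. The target gene Bmp4 was at 24.8 and 27.2 FPKM in the upper and lower molar of the control and at 4.75 and 4.90 FPKM in the mutant. All 10 mesenchyme markers, among them Pax9, Msx1 and Prrx1, averaged 1 FPKM or more, and their summed level was between 835.1 and 940.1 FPKM. Of 14 skeletal muscle markers 1 reached that level, Ckm was at 0 in every library, and the summed level was between 3.71 and 4.81 FPKM. Erythroid markers, mainly globins, summed to between 920.4 and 1093 FPKM with 8 of 10 at that level. The mutant sum was below the control in the upper molar and above it in the lower. Endothelial markers (8 of 8) summed to 45.1 and 42.1 FPKM in the upper and lower molar of the control and 31.9 and 39.5 FPKM in the mutant. Epithelial (4 of 8), macrophage (2 of 6) and neuron and Schwann markers (0 of 7) summed to at most 22.8, 5.63 and 2.75 FPKM in any library. The part of these other cells in the values below was not tested, and in pooled tissue fewer cells of a type cannot be told apart from less RNA per cell.

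Some short motifs were more frequent in the promoters of the members than in those of all genes, although most members lacked each of them. An entry in the RefSeq promoter table (GRCm38.p6, 250 bases before to 50 bases after a start) was found for 69 of 85 members. The core site of NRF-1, a transcription factor known for driving respiratory chain genes, was searched as GCGCATGC on both strands. It was present in a promoter of 10 of the 69 members (14.5%), and in 3.05% of the 27025 genes of the table. The core of the ETS factor GABP (NRF-2), CCGGAAG, was present in 16 members (23.2%) and in 9.93% of all genes. For YY1, the letters AAGATGGC were present in 11 members (15.9%) and in 3.19% of all genes, and the members with this match were 7 of complex I and 4 of complex V. The CCAAT box was found in 44.9% of the members and in 41.1% of all genes, and the TATA box letters TATAAA in 10.1% and 15.7%. Median GC content was 57.3% over 75 member promoters and 52.7% over all promoters. These shares are descriptions, and a match is not a binding site that was measured here.

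In each complex the most highly expressed member whose promoter holds the NRF-1 core is shown, to let the match be seen in its context. Each sequence reads 5′ to 3′ on the strand of its gene and ends 50 bases past the start, with the NRF-1 core in capitals. A longer run of capitals is the core matched on both strands, with the matches overlapping. The regions on GRCm38.p6 are chr2:36049289-36049588 (minus strand) for Ndufa8, chr4:140961021-140961320 (plus) for Sdhb, chr9:108936398-108936697 (plus) for Uqcrc1, chr5:115348909-115349208 (minus) for Cox6a1 and chr15:102670998-102671297 (minus) for Atp5g2.
Ndufa8: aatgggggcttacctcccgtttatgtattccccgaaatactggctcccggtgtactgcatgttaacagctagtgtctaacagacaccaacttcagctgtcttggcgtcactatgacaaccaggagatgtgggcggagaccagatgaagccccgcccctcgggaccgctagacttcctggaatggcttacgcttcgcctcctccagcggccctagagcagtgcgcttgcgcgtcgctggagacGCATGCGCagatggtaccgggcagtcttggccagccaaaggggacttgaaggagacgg
Sdhb: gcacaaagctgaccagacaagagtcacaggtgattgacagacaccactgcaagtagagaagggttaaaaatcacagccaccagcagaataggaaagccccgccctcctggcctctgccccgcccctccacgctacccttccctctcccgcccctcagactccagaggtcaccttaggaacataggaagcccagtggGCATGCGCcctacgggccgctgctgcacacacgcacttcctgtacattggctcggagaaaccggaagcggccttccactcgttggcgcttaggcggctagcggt
Uqcrc1: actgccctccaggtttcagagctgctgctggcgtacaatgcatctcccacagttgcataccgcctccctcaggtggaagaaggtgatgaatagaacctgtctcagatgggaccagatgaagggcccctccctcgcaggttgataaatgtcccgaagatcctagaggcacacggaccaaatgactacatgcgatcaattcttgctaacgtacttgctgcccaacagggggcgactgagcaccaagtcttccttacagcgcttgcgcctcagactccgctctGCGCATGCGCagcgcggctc
Cox6a1: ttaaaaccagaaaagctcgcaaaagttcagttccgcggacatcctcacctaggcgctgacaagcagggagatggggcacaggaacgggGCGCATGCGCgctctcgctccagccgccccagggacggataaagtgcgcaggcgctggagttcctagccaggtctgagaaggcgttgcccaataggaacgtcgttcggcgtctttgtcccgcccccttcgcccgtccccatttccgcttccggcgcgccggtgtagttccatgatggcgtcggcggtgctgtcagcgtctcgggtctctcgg
Atp5g2: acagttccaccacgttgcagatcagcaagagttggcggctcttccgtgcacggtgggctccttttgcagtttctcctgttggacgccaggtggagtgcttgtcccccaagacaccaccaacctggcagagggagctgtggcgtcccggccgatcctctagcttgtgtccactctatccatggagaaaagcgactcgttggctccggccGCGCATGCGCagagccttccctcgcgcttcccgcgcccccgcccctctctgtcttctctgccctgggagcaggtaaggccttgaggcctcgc
The core begins 8 bases before the start in Ndufa8 and 54 bases before it in Sdhb. In Uqcrc1 the first match begins 30 bases after the start, and in Cox6a1 and Atp5g2 it begins 162 and 42 bases before it. The genotype differences of all 10 members with the core ran from -0.16 (Atp5g2) to 0.57 (Uqcr11) on the log2(FPKM + 1) scale with a median of 0.00. Those of the 55 tested members with a promoter that lacks these letters ran from -0.25 to 0.41 with a median of 0.05.

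Levels of the members were high and uneven. Together they made up 1.89% and 1.82% of all FPKM in the upper and lower molar of the control, and 1.95% and 1.80% in the mutant. The mean FPKM of tested members ran from 1.98 to 402.9, with a median of 22.4. Atp5b, the catalytic beta subunit of ATP synthase, stood highest, followed by Cox7c, a small structural subunit of complex IV. By complex, the median of these means was 15.3 FPKM for complex I, 21.5 for complex II, 18.4 for complex III, 38.2 for complex IV and 49.3 for complex V. The members are short, with a median length of 0.6865 kb among those tested against 2.882 kb among all 10502 tested genes. A median of 238 approximate reads stood behind a tested member in a library, which by counting alone gives a log2 difference an SD of 0.132.

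**Figure D1:**
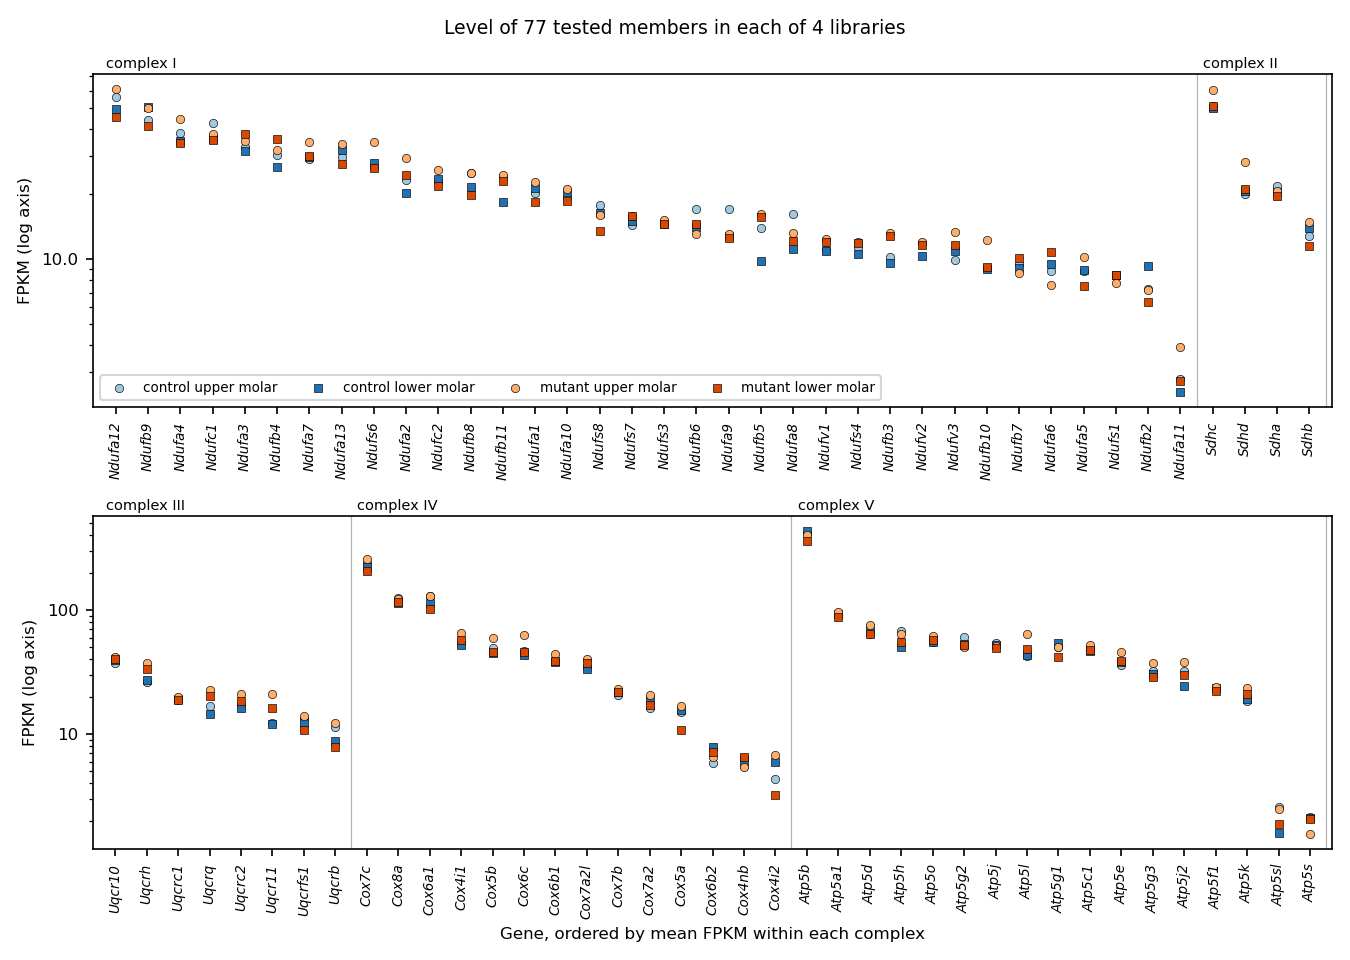
Level of 77 of the 78 tested members in the 4 libraries, as FPKM on a log axis, ordered by mean within each complex; circles are upper molars, squares lower molars, blue control and orange mutant. The 4 libraries of a gene lie close together compared with the spread between genes, which runs from 1.98 to 402.9 mean FPKM, and the mutant upper molar is often the highest point.

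The first comparison asked whether expression of the machinery differed between mutant and control. No member passed the test over both molars: limma on log2(FPKM + 1), with genotype and molar as terms and Benjamini-Hochberg adjustment over all 10502 genes, called 0 of 78 higher and 0 lower in the mutant, against 0.343% and 0.457% of all genes. The smallest adjusted p of a member was 0.139, for Uqcr11 of complex III. At an unadjusted p under 0.05, 8 members were higher and 0 lower in the mutant (10.3%), against 13.2% of all genes in either direction. The SE of a member's difference was between 0.0985 and 0.265 with a median of 0.112, and the smallest difference called for any gene was 0.70. The largest member difference was 0.57. With 1 residual degree of freedom these p-values measure the disagreement between molars or genotypes and not the spread between pools of embryos.

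Small differences in the upper molar mostly had the same sign. There the median member was 0.15 higher in the mutant on the log2(FPKM + 1) scale, against 0.02 for all tested genes. Of the 78 members 59 were higher, against 5573 of the 10502 tested genes. Rescaling by median ratios or to equal sums of FPKM gave 0.13 and 0.08, against -0.0009 and -0.04 for all genes. The members' median thus lay 0.13 above that of all genes as deposited, and 0.13 and 0.12 above it after these rescalings. A difference of at least 0.3 was seen in 16 members upward (20.5%, against 11.4% of all genes) and in 3 downward (3.85%, against 8.13%). In the lower molar the median was 0.02 against -0.05 for all genes, and 42 of 78 members were higher, against 4364 of 10502 genes. The same rescalings gave 0.08 and 0.05 there, against 0.004 and -0.02 for all genes, with 51 and 46 members higher. There 6 members differed by at least 0.3 upward (7.69%, against 9.24%) and 4 downward (5.13%, against 12.7%). No member differed by as much as 1 between the genotypes in either molar, a size that 1.01% and 1.10% of all genes reached.

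Across both molars 34 members were higher in the mutant (43.6%, against 27.2% of all genes) and 11 were lower (14.1%, against 32.4%). Both mutant libraries lay above both controls in 24 members (30.8%, against 18.4%) and below them in 7 (8.97%, against 23.1%). Short genes showed a like pattern: among the 843 tested genes under 1 kb that are no members, 30.4% had both mutants above both controls, and their median differences were 0.13 in upper and 0.05 in lower molars. Members of 1 kb or more (26) had medians of 0.10 and 0.01, and shorter members (52) had 0.15 and 0.02. The part of transcript length in the members' differences was not tested. The cytosolic ribosomal protein genes, also short and abundant, had medians of 0.21 and 0.19 over 94 tested genes.

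**Figure D2:**
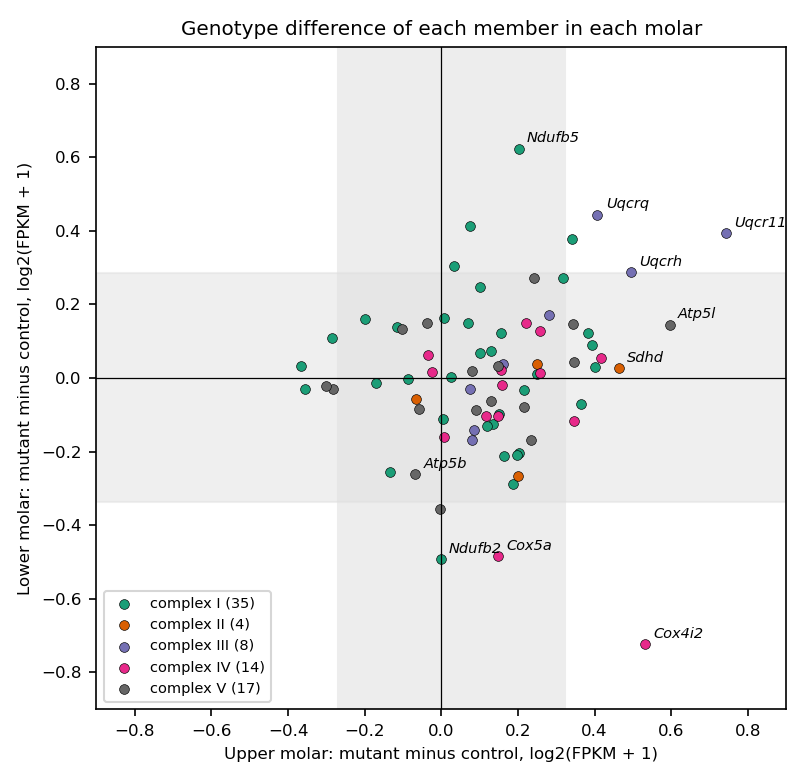
Difference between mutant and control of each of the 78 tested members, on the log2(FPKM + 1) scale, in the upper molar (horizontal axis) and the lower molar (vertical axis), coloured by complex; grey bands hold the 10th to 90th percentile of all tested genes. Most points lie right of 0, while they scatter to both sides of 0 in the lower molar, with Uqcr11 farthest to the right and Cox4i2 lowest.

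The mutant upper molar library stood apart. It held the highest value of the 4 libraries in 54 of 78 members (69.2%), against 30.9% of all tested genes and 45.8% of the short genes that are no members. It had the most reads of the 4 libraries, 5550000, and the highest sum of FPKM, 158494 against 148263 to 151441 in the other three. After each library was rescaled to the same sum of FPKM, it was highest in 39 members (50%) against 19.8% of all genes, and with median ratios in 44 (56.4%) against 24.3%. The genotype median over both molars was 0.04 with all libraries, against -0.02 for all tested genes. It was -0.02 against -0.05 without the mutant upper molar library, and 0.14 against 0.02 without that of the mutant lower molar. The runs without a library held no molar term, so the molars were mixed into their genotype difference. Within the upper and lower molar alone the members' median was 0.15 and 0.02, against 0.02 and -0.05 for all genes. The sign thus depended on the libraries and terms used, while the members' median lay above that of all genes in each run given here.

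**Figure D3:**
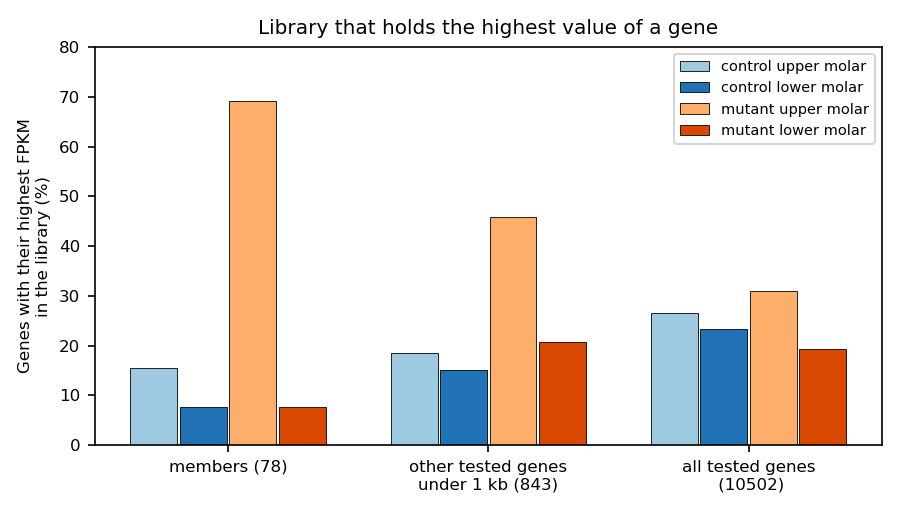
Share of genes, in percent, whose highest value of the 4 libraries falls in each library, for the 78 tested members, the 843 tested genes under 1 kb that are no members and all 10502 tested genes. The mutant upper molar holds 69.2% of the members and 30.9% of all tested genes.

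Complex I, the NADH dehydrogenase, had 35 of 37 members tested, summing to 711.0 and 675.7 FPKM in the upper and lower molar of the control and 763.7 and 684.5 FPKM in the mutant. Its central subunits carry the flavin and the iron-sulfur clusters. Ndufv1, which binds NADH and the flavin, was at 11.02 and 10.96 FPKM in the upper and lower molar of the control and at 12.4 and 12.0 FPKM in the mutant. Ndufv2, an iron-sulfur partner of Ndufv1, was at 11.9 and 10.3 FPKM and then 12.0 and 11.6 FPKM. Ndufs1, the largest of the iron-sulfur subunits, was at 8.33 and 8.49 FPKM in the control and at 7.79 and 8.46 FPKM in the mutant. Ndufs1 is the sum of 4 transcripts whose shares differed between libraries: its genotype difference was -0.04 for the sum and 1.29 for the most abundant transcript alone. Ndufs3, at the foot of the peripheral arm, differed by 0.01 ± 0.10 (log2, SE, limma adjusted p = 0.972). Ndufs7 differed by 0.10 ± 0.11, and Ndufs8, also an iron-sulfur subunit, was at 17.8 and 16.4 FPKM in the control and 16.1 and 13.5 FPKM in the mutant (-0.20 ± 0.11, adjusted p = 0.497).

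The accessory subunits of complex I surround that core. Ndufb5, of the membrane arm (chromosome 3, 32635985 to 32650481, mm9), was at 13.9 and 9.78 FPKM in the upper and lower molar of the control and at 16.1 and 15.6 FPKM in the mutant. Both mutant values lay above both controls, and the difference of 0.41 ± 0.13 (SE, limma adjusted p = 0.282) was the largest of the complex. Ndufb2, also of the membrane arm, lay at the other end, at 7.25 and 9.29 FPKM in the control and 7.24 and 6.31 FPKM in the mutant (-0.25 ± 0.14, adjusted p = 0.515). Its difference was 0.00 in upper and -0.49 in lower molars. Ndufb3 was chosen after its values were seen, as 1 of the 8 members with an unadjusted p under 0.05. It was at 10.2 and 9.63 FPKM in the control and 13.2 and 12.8 FPKM in the mutant, with differences of 0.34 and 0.38 in the upper and lower molar. Ndufa12, the most abundant member of complex I, was at 56.0 and 49.6 FPKM in the control and 60.9 and 45.3 FPKM in the mutant, a difference of -0.01 ± 0.11. The 2 members of complex I under the filter were Ndufs5, an accessory subunit at 0.644 to 0.945 FPKM, and Ndufa4l2. How reads with several alignments were counted is not given, which leaves the level of Ndufs5 uncertain. In 11 of the 35 tested members both mutant libraries lay above both controls and in 2 they lay below, against 18.4% and 23.1% of all genes and 30.4% above among the short genes that are no members.

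Complex II, succinate dehydrogenase, is made of 4 subunits and also belongs to the citric acid cycle. Sdha, the flavoprotein that oxidises succinate, was at 21.7 and 20.4 FPKM in the upper and lower molar of the control and 20.7 and 19.6 FPKM in the mutant. Sdhb, the iron-sulfur subunit, was at 12.9 and 14.0 FPKM in the control and 14.9 and 11.5 FPKM in the mutant, higher in one molar and lower in the other. The membrane anchors Sdhc and Sdhd were both highest in the mutant upper molar. Sdhc was at 50.9 and 49.8 FPKM in the control and at 60.7 and 51.2 FPKM in the mutant. Sdhd was at 20.1 and 20.6 FPKM in the control and at 28.0 and 21.0 FPKM in the mutant (0.24 ± 0.13, limma adjusted p = 0.495). The difference of Sdhd was 0.46 in upper and 0.03 in lower molars.

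Complex III, the cytochrome bc1 complex, had all 8 members tested, and all 8 were highest in the mutant upper molar. That library was highest in 69.2% of the 78 tested members, 45.8% of the short genes that are no members and 30.9% of all tested genes. The summed level of complex III was 153.5 and 149.7 FPKM in the upper and lower molar of the control and 190.5 and 166.1 FPKM in the mutant. In 5 of the 8 both mutant libraries lay above both controls: Uqcr10, Uqcr11, Uqcrc2, Uqcrh and Uqcrq. The share over all tested genes was 18.4%, and over the short genes that are no members 30.4%. The median difference was 0.22 in upper and 0.10 in lower molars, and 0.16 and 0.13 after rescaling to equal sums of FPKM.

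Uqcr11, the smallest subunit of the complex (chromosome 10, 79865742 to 79869566, mm9), was at 12.3 and 12.1 FPKM in the upper and lower molar of the control and at 21.2 and 16.3 FPKM in the mutant. The mutant values did not overlap the controls, and its difference of 0.57 ± 0.12 (log2, SE, limma adjusted p = 0.139) was the largest among the 78 members. It passed the test, with an adjusted p of 0.0245, only where genes with a mean under 5 FPKM were left out, a setting that tested 5307 genes, and its adjusted p was between 0.0734 and 0.979 under the others. Uqcrq and Uqcrh were named after their values were seen. Uqcrq, a small subunit near the ubiquinone site, was at 16.9 and 14.7 FPKM in the control and 22.8 and 20.3 FPKM in the mutant (0.43 ± 0.10, adjusted p = 0.169). Uqcrh, the hinge protein that contacts cytochrome c1, was at 26.2 and 27.2 FPKM in the control and 37.4 and 33.4 FPKM in the mutant (0.39 ± 0.11, adjusted p = 0.217). These are accessory subunits, and all 3 have transcripts under 1 kb.

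The remaining members of complex III include a catalytic protein and the core proteins. Uqcrfs1, the Rieske iron-sulfur protein that hands electrons to cytochrome c1, was at 13.3 and 12.3 FPKM in the control and 14.1 and 10.9 FPKM in the mutant (-0.04 ± 0.12). The core proteins Uqcrc1 and Uqcrc2, the latter named after its values were seen, differed by 0.02 ± 0.11 and 0.23 ± 0.11 (limma adjusted p = 0.954 and 0.433). Uqcr10, the most abundant member, was at 37.4 and 39.3 FPKM in the control and 42.0 and 40.3 FPKM in the mutant.

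Complex IV, cytochrome c oxidase, had 14 of 19 members tested, summing to 785.0 and 738.5 FPKM in the upper and lower molar of the control and 862.9 and 714.3 FPKM in the mutant. The median difference was 0.16 in upper and 0.00 in lower molars. Several subunits come as isoforms that differ between tissues, and the ubiquitous forms made up most of the expression. Cox4i1, the general form of the subunit that regulates the enzyme by ATP, was at 54.2 and 52.1 FPKM in the upper and lower molar of the control and 65.0 and 56.9 FPKM in the mutant. The difference of 0.19 ± 0.10 (limma adjusted p = 0.492) did not pass the test, although both mutant values lay above both controls, as in 18.4% of all tested genes.

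Cox4i2, the isoform best known from lung and from cells in low oxygen (chromosome 2, 152579909 to 152590773, mm9), went opposite ways in the molars. It was at 4.37 and 6.01 FPKM in the upper and lower molar of the control and at 6.77 and 3.24 FPKM in the mutant. Mutant minus control was 0.53 for the upper and -0.72 for the lower molar on the log2 scale. These differences cancelled over both molars (-0.10 ± 0.26). This was the widest disagreement among the 78 tested members. Cox4i2 rested on about 42 and 57 reads in the upper and lower molar of the control and 73 and 33 in the mutant. The count of 33 was the lowest of any tested member in any library. Cox4i2 made up 7.47% and 10.3% of the summed Cox4i1 and Cox4i2 in the control and 9.43% and 5.39% in the mutant.

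The other isoform pairs of complex IV kept their order in every library. Cox6a1, the form found outside muscle, was at 128.7 and 113.6 FPKM in the control and 129.2 and 101.6 FPKM in the mutant, while Cox6a2, the heart and skeletal muscle form, was at 0 in all 4 libraries. At this depth 3 reads, the floor used here, would have been 0.306 to 0.35 FPKM of Cox6a2. Cox8a, the general form, was at 114.4 to 124.7 FPKM, whereas Cox8b, the muscle form, had 0.501 FPKM in the control lower molar and 0 elsewhere, and Cox8c, the testis form, was at 0 throughout. Cox7a1, the muscle form, was listed at 0.575 FPKM in the mutant lower molar and at 0 in the other libraries. Cox7a2, its counterpart outside muscle, was at 16.1 and 18.8 FPKM in the control and 20.8 and 17.3 FPKM in the mutant, and Cox7a2l, a related protein in respiratory supercomplexes, was at 34.5 and 33.5 FPKM and then 40.4 and 37.2 FPKM. Cox7b was at 20.7 to 23.3 FPKM, and the testis form Cox7b2 was read only in the control lower molar, at 0.122 FPKM.

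Cox6b2, a form known from testis, was measured at 5.85 and 7.85 FPKM in the upper and lower molar of the control and 6.59 and 7.24 FPKM in the mutant. It made up between 12.9% and 17.1% of the summed Cox6b1 and Cox6b2. Cox7c, the most abundant member of the complex, was at 239.0 and 220.8 FPKM in the control and 259.3 and 205.5 FPKM in the mutant (0.01 ± 0.10). Cox5a, a subunit on the matrix side, had its lowest value in the mutant lower molar, at 15.2 and 15.6 FPKM in the control and 16.9 and 10.9 FPKM in the mutant (-0.17 ± 0.16). Cox6c, a membrane subunit, was at 46.8 and 43.8 FPKM in the control and 62.8 and 45.6 FPKM in the mutant (0.24 ± 0.12, limma adjusted p = 0.476), so that the mutant upper molar alone stood above the rest.

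Complex V, the ATP synthase, had all 17 members tested and the highest summed level, 1101 and 1090 FPKM in the upper and lower molar of the control and 1142 and 1008 FPKM in the mutant. Atp5b, its catalytic beta subunit (chromosome 10, 127520363 to 127527444, mm9), was at 420.9 and 430.5 FPKM in the control and at 401.3 and 358.9 FPKM in the mutant. Both mutant values were below both controls, as in 23.1% of all tested genes. The difference of -0.17 ± 0.10 (log2, SE, limma adjusted p = 0.546) did not pass the test. Atp5a1 was added after its values were seen, as the alpha subunit that alternates with beta in the catalytic head, and was at 88.8 and 92.7 FPKM and then 97.2 and 88.7 FPKM. Atp5l, subunit g at the foot of the enzyme in the membrane, was at 42.4 and 43.7 FPKM in the control and 64.5 and 48.4 FPKM in the mutant (0.37 ± 0.13, adjusted p = 0.327), which was the largest difference of the complex. In the upper molar it was 0.60 and in the lower 0.14. Atp5s, a coupling factor, was at 2.16 and 2.12 FPKM in the control and at 1.57 and 2.07 FPKM in the mutant.

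The proton-carrying ring of ATP synthase is built from subunit c, for which 3 genes encode the same mature protein. Atp5g1 was at 50.8 and 53.9 FPKM in the upper and lower molar of the control and at 50.7 and 41.9 FPKM in the mutant (-0.18 ± 0.12), summed over 2 transcripts. One of these was at 22.3 and 33.8 FPKM in the upper molar of control and mutant and the other at 28.5 and 16.9 FPKM, and the genotype difference turned to 0.29 where the more abundant transcript alone was used. Atp5g2 was at 60.9 and 53.1 FPKM in the control and at 49.9 and 52.0 FPKM in the mutant (-0.16 ± 0.11). Atp5g3 was at 32.1 and 30.5 FPKM in the control and at 37.5 and 28.8 FPKM in the mutant (0.07 ± 0.12). Of the 17 members of complex V, 5 had both mutant libraries below both controls, Atp5g1 and Atp5g2 among them, and 4 had both above. The shares below and above were 23.1% and 18.4% of all tested genes, and 11.9% and 30.4% of the short genes that are no members. None of Atp5g1, Atp5g2 and Atp5g3 passed the test. Their sum was 143.8 and 137.5 FPKM in the control and 138.0 and 122.7 FPKM in the mutant, with Atp5g3 the smallest share everywhere, from 22.2% to 27.1%.

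**Figure D4:**
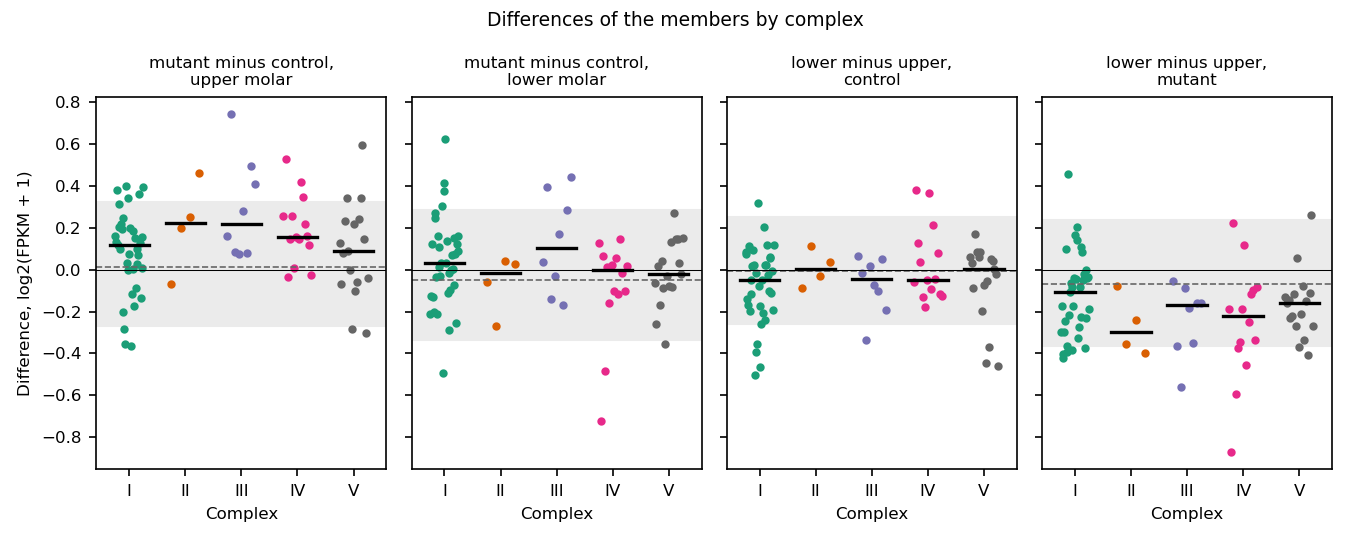
Differences of the tested members of each complex on the log2(FPKM + 1) scale, with 1 point per member, for mutant minus control in each molar and for lower minus upper molar in each genotype; black bars are complex medians, the dashed line is the median and the grey band spans the 10th to 90th percentile of all tested genes. Complex III has medians of 0.22 and 0.10 for mutant minus control in the upper and lower molar, and all 5 complexes have medians below 0 for lower minus upper in the mutant.

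The second comparison asked whether upper and lower molars differed. No member passed: limma called 0 of 78 higher and 0 lower in the lower molar, against 0.390% and 0.333% of all genes, and the smallest adjusted p was 0.221, for Uqcrb. At an unadjusted p under 0.05, 0 members were higher and 7 were lower in the lower molar (8.97%, against 10.2% of all genes in either direction). The comparison within each genotype shares libraries with the comparison within each molar, so the following values restate the same 4 libraries.

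In the control, the median of lower minus upper molar was -0.03 over the members, against 0.00 for all genes, with 3 members at least 0.3 higher in the lower molar (3.85%, against 7.11%) and 8 at least 0.3 lower (10.3%, against 8.19%). In the mutant the median was -0.18 against -0.07, with 1 member at least 0.3 higher (1.28%, against 7.28%) and 21 at least 0.3 lower (26.9%, against 14.8%). With median ratios and equal sums this median was -0.10 and -0.09 over the members, against 0.001 and 0.01 for all genes. No member reached a difference of 1 in the control or in the mutant, against 0.971% and 1.28% of all genes. In both genotypes 5 members were higher (6.41%, against 20.8%) and 38 lower in the lower molar (48.7%, against 35.0%). Both lower molar libraries lay above both upper ones in 5 members (6.41%, against 12.2%) and below them in 24 (30.8%, against 21.2%). After rescaling by median ratios the latter count was 14 (17.9%, against 16%). Among the 843 tested genes under 1 kb that are no members, 8.66% lay above and 23.3% below, and 18.3% below with median ratios. Their median of lower minus upper in the mutant was -0.12. It was -0.19 for 16 tested carriers of electrons or ATP, -0.11 for 76 mitochondrial ribosomal protein genes and 0.01 for 94 cytosolic ones. The number of members with a lower mean in the lower molar also depended on scaling. As deposited, 11 of 78 were higher, against 4145 of 10502 tested genes, and with either rescaling 22 of 78 were higher. The median over all genes moved as well, from -0.0371 to -0.0006 with median ratios and 0.00229 with equal sums. The members' median minus that of all genes was -0.0659 as deposited, and -0.0592 and -0.0586 after these rescalings.

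Uqcrb, a ubiquinone-binding subunit of complex III (chromosome 13, 67001557 to 67006286, mm9), had the largest molar difference. It was at 11.4 and 12.2 FPKM in the upper molars of control and mutant and at 8.86 and 7.94 FPKM in the lower molars (-0.45 ± 0.11, log2, SE, limma adjusted p = 0.221), so that the molars did not overlap. Atp5sl was at 2.57 and 2.47 FPKM in the upper molars and at 1.596 and 1.881 FPKM in the lower molars (-0.36 ± 0.13). Ndufa8, a complex I subunit facing the intermembrane space, was at 16.2 and 13.2 FPKM in the upper molars and 11.2 and 12.1 FPKM in the lower (-0.31 ± 0.13, adjusted p = 0.494). Ndufa6, an accessory subunit of complex I, showed the largest difference in the other direction, at 8.84 and 7.57 FPKM in the upper molars and 9.51 and 10.8 FPKM in the lower (0.28 ± 0.13, adjusted p = 0.535). Cox6a1 differed by -0.26 ± 0.10 and Ndufa4 by -0.24 ± 0.11, and Cox6b2 by 0.24 ± 0.12. Ndufa4l2, a relative of Ndufa4 known from low oxygen, was under 1 FPKM in each library, at 0.928 and 0.186 FPKM in the upper molars and 0 and 0.483 FPKM in the lower.

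Other lists of mitochondrial and energy genes also had no gene called by limma in either comparison. At an unadjusted p under 0.05 by genotype stood 4 of 38 tested assembly factors, 2 of 16 carriers, 2 of 20 citric acid cycle genes, 3 of 15 regulators, 6 of 19 genes of glycolysis and low oxygen, 6 of 76 mitochondrial ribosomal protein genes and 36 of 94 cytosolic ones, against 13.2% of all tested genes. The genotype medians of the assembly factors, of which 41 were listed, were 0.07 in upper and 0.00 in lower molars. Uqcc2, an assembly factor of complex III listed under an older symbol, was at 8.18 and 7.34 FPKM in the upper and lower molar of the control and 12.5 and 9.91 FPKM in the mutant (0.47 ± 0.11, limma adjusted p = 0.158). Among 16 tested carriers of electrons or ATP, with medians of 0.13 and -0.05, Usmg5, a small protein bound to ATP synthase, had the largest difference. Usmg5 was at 9.63 and 8.26 FPKM in the control and 18.3 and 11.2 FPKM in the mutant (0.63 ± 0.14, adjusted p = 0.139). The 20 genes of the citric acid cycle and pyruvate dehydrogenase had medians of 0.01 and -0.11, and 15 tested regulators of mitochondrial genes had 0.04 and -0.13. Among the regulators Gabpa, a subunit of GABP, was at 16.7 and 16.4 FPKM in the control and 13.7 and 13.3 FPKM in the mutant (-0.28 ± 0.10, adjusted p = 0.343). The 19 tested genes of glycolysis and of the response to low oxygen had medians of 0.31 and 0.09, with Pdk1, which restrains pyruvate dehydrogenase, at 1.604 and 1.84 FPKM in the control and 2.50 and 3.23 FPKM in the mutant (0.50 ± 0.13, adjusted p = 0.197). The 76 mitochondrial ribosomal protein genes had medians of 0.10 and -0.07.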

How the data were processed

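Frozen sections were laser-captured, RNA was amplified as cDNA and sequenced, per the labels' protocols. Reads were aligned to mm9 with TopHat 1.4.1 and Bowtie 0.12.7, per the submitters' processing notes. The authors deposited FPKM and coverage (a signal per transcript) for 28107 transcripts, per the file headers, in the layout of Cufflinks. The Cufflinks version, the strand option and how multiply aligned reads were counted are not given in the sources used here. Short members, overlapping genes and members with near-identical copies elsewhere are therefore uncertain, and amplified reads are not independent molecules.

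FPKM was summed per gene symbol and given a pseudocount of 1. Reads were approximated as deposited coverage times length over 44.2 bases, and support counting errors only. limma 3.58.1 (R 4.3.3) was fitted to 10502 genes with genotype and molar as additive terms, an intensity trend (5.77 prior degrees of freedom), two-sided, at an adjusted p of 0.05, after a check on simulated data. Differences within a molar or genotype compare 2 libraries and carry no test.

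Members and lists were chosen with earlier results of these data known. Named members were the most abundant and the extremes of each complex by genotype and molar difference, complex II, isoforms and the central subunits of complex I. Of the other lists, up to 3 genes with the largest genotype difference were eligible. Ndufb3, Uqcrq, Uqcrh, Uqcrc2, Atp5a1 and the genes of the closing observations were added after their values were seen. Alternatives changed scaling, pseudocount, filters, transcripts, the trend, the terms, the members and the libraries used. One member that the rule names is counted but not reported here.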

Additional observations from a re-analysis of the deposited data

Results flagged for a closer look

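Some medians, and many single members, had opposite signs at the levels of the other factor, on the log2(FPKM + 1) scale. Mutant minus control was positive for each molar in 34 of the 78 tested members and negative for each in 11. In the other members its sign differed between the molars. Of these only Cox4i2, with the widest disagreement, is given below. With 1 library per group none of these differences was tested. The median of mutant minus control was 0.2256 in upper and -0.0153 in lower molars over the 4 members of complex II, which are 0.2408 apart. Over the 14 tested members of complex IV these medians were 0.1574 and -0.0016, which are 0.1590 apart, and over the 17 members of complex V they were 0.0899 and -0.0209, which are 0.1107 apart. The lower molar medians of these complexes turned to 0.0446, 0.0591 and 0.0331 after rescaling by median ratios, so that the signs were no longer opposite. The median of lower minus upper molar was 0.0024 in the control and -0.2984 in the mutant for complex II, 0.3009 apart, and 0.0049 and -0.1607 for complex V, 0.1656 apart. For Cox4i2, mutant minus control was 0.5316 in upper and -0.7232 in lower molars, 1.2548 apart. Its lower minus upper difference was 0.3827 in the control and -0.8721 in the mutant, which is the same contrast of the 4 libraries. Only about 33 to 73 reads per library stood behind this gene.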

How the results depend on the processing

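No member was called in the molar comparison under any alternative run, and in the genotype comparison 1 member was called, Uqcr11, where a mean of at least 5 FPKM was required. The genotype median of the members (0.04) ranged from -0.0172, without the mutant upper molar, to 0.142, without the mutant lower molar, as each library was left out. The median of all genes was -0.0492 and 0.0196 in these runs. The molar median (-0.10) ranged from -0.192, without the control upper molar, to -0.0159, without the mutant upper molar. For all genes it was -0.0462 and -0.0289, so that in the run without the mutant upper molar the members did not lie below all genes. The runs that left out a library held the compared factor alone, so the other factor was mixed into these medians. Within the control, which also lacks the mutant upper molar, lower minus upper was -0.0288 for the members and -0.0038 for all genes. Over all genes the genotype comparison called 84 genes, 146 at a mean of at least 5 FPKM, 133 without transcripts under 0.3 kb, 100 with equal sums, 38 without the trend, 15 with median ratios, 7 with genotype alone, and 0 without a filter or with the highest transcript per gene. The molar comparison called 76 genes, between 0 and 139 under these. Of 1036 effects of single named members under the alternatives, 963 kept the sign reported and 73 did not, none of the latter called in either setting, and 86 lay further from the reported value than its spread. No paired analysis of samples was possible because each group held 1 pooled library, and the labels carry no replicate numbers. The molar term is the one pairing in the genotype fit. The 7 calls above and the runs that left out a library are without it. About 40 reads per library, as a mean over the 4 libraries, stood behind the most weakly read tested member. By counting alone this gives a log2 difference an SD of 0.322.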

Other observations

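Atp5j2, which encodes subunit f in the membrane part of ATP synthase, was the one member with an unadjusted p under 0.05 in both comparisons. It was at 32.1 and 24.6 FPKM in the upper and lower molar of the control and at 38.1 and 30.0 FPKM in the mutant. The limma difference was 0.26 ± 0.10 by genotype (adjusted p = 0.361) and -0.35 ± 0.10 by molar (adjusted p = 0.285), so neither passed. Atp5h, subunit d of the stalk that holds the catalytic head in place, was at 68.4 and 63.6 FPKM in the upper molars of control and mutant and at 49.9 and 54.8 FPKM in the lower molars (-0.33 ± 0.11, adjusted p = 0.358). Ndufb8, of the membrane arm of complex I, was at 24.95 and 25.06 FPKM in the upper molars and 21.5 and 19.8 FPKM in the lower molars (-0.27 ± 0.11, adjusted p = 0.458). For both genes the 2 lower molar libraries lay below the 2 upper ones, as in 21.2% of all tested genes. Across the 78 tested members, which share libraries and are not replicates, the mutant minus control difference in the upper molar had a Pearson r of -0.206 and a Spearman rho of -0.233 with transcript length (r on log2 length). In the lower molar r was -0.0556 and rho -0.109, and for lower minus upper molar r was 0.0388 in the control and 0.188 in the mutant.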
